A study of Mus musculus with 5 samples.

Results

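Of 493 cells sorted with C12FDG from lungs of hyperoxia-exposed mice at pnd7, 72 carried transcripts of at least 3 of 6 cell cycle genes. C12FDG is a substrate that becomes fluorescent when cleaved by β-galactosidase, and the sort was meant to collect senescent cells, which by definition do not divide. The cells were selected on their own counts: a cell was included when at least 3 of the 6 genes Mki67, Top2a, Birc5, Cenpf, Nusap1 and Ube2c had at least 1 count, among barcodes with more than 700 and fewer than 8000 genes and under 5% mitochondrial counts. The 72 cells are 14.6% of the sorted cells (95% exact binomial interval 11.6 to 18.0), out of 13200 cells in the series. They are called cycling cells below, after the rule. The other 421 sorted cells served as the comparison, together with unsorted cells that met the same rule.

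The series holds 5 single-cell RNA-seq libraries of C57BL/6J mouse lung, 1 per condition. Unsorted lung cells were taken at pnd7 and pnd60 from mice kept in air or exposed to hyperoxia. Hyperoxia was more than 95% oxygen for 3 days, begun under 12 h after birth, and was followed by room air. The sorted cells came from hyperoxia-exposed mice at pnd7, with the lungs of 3 mice pooled. Without replicate libraries nothing could be tested over animals, and every interval below covers counting error only. Filtered cells held 7880365 counts in the sorted library, 13576172 and 16648251 in hyperoxia and air at pnd7, and 16533775 and 14744081 in hyperoxia and air at pnd60. None of the 72 cell barcodes occurred among the filtered cells of another library.

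A dividing cell duplicates its DNA in S phase and separates the copies in mitosis, with gap phases G1 and G2 in between. Cyclins bound to cyclin-dependent kinases (CDKs) drive each step, and CDK inhibitors such as p21, the product of Cdkn1a, hold it back. Genes for DNA replication are switched on by E2F factors at the start of S phase, whereas genes for the spindle and cytokinesis are switched on in G2 through the complexes that act at CHR elements and CCAAT boxes. Cells that have entered senescence have left the cycle for good, raise CDK inhibitors and lysosomal β-galactosidase, and lose lamin B1. Macrophages of the lung are rich in lysosomes, and those of the alveoli renew themselves by division in place.

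Promoters of 3 selecting genes are printed because they hold both the CHR and the CCAAT letters. The windows run from 250 bases before to 50 bases after the start of the gene (RefSeq, GRCm38.p6, read on the strand of the gene). The elements were searched as TTTGAA for the CHR element and as CCAAT for the CCAAT box, on both strands and with overlapping matches allowed, and matches are in capitals. The 3 windows shown were chosen after the matches were seen. Mki67 encodes the Ki-67 protein of the mitotic chromosome surface and starts in chr7:135716330-135716629, minus strand. Top2a encodes the topoisomerase that untangles replicated DNA and starts in chr11:99024140-99024439, minus strand. Ube2c encodes the ubiquitin-conjugating enzyme of the anaphase-promoting complex and starts in chr2:164769679-164769978, plus strand.
Mki67: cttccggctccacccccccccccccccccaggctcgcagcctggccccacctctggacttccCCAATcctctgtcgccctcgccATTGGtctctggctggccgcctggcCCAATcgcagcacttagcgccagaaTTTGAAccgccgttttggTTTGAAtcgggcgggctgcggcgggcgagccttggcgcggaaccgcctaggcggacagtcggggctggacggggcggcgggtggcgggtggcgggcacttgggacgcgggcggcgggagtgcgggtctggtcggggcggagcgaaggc
Top2a: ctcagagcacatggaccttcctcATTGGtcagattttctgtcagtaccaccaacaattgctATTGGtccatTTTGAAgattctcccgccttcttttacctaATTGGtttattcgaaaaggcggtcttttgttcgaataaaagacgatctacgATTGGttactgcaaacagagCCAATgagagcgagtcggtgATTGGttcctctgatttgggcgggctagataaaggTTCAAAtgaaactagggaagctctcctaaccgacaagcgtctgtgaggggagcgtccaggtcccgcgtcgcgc
Ube2c: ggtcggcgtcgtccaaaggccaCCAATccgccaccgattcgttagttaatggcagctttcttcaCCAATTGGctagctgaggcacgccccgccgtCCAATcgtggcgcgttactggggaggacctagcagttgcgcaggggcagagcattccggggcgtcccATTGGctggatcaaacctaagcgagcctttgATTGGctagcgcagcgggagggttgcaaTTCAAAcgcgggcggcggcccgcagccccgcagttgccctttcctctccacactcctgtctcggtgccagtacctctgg
Both elements were present in 4 of the 6 windows of the selecting genes. The windows of Birc5 and Nusap1 held neither set of letters. Of the 61 further G2/M genes, 51 were matched, with 57 windows. The CHR letters were in 64.9% of these windows and in 17.9% of all 32851 windows, and the CCAAT letters in 75.4% against 37.4%. Both were present in 50.9% of the G2/M windows and in 6.95% of all windows.

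For the S phase genes the E2F site was searched as TTTCCCGC, TTTCGCGC, TTTGCCGC and TTTGGCGC, again on both strands. Of 48 S phase genes 36 were matched, with 42 windows. The site was in 38.1% of these windows, in 2.26% of all windows and in none of the 6 windows of the selecting genes. The windows of Mcm5 and Mcm6, which encode subunits of the replicative helicase, are shown as examples with the E2F letters in capitals. In each, overlapping matches on opposite strands form one longer run, and Mcm6 has a further match on its own. Mcm5 starts in chr8:75109259-75109558, plus strand, and Mcm6 in chr1:128359656-128359955, minus strand.
Mcm5: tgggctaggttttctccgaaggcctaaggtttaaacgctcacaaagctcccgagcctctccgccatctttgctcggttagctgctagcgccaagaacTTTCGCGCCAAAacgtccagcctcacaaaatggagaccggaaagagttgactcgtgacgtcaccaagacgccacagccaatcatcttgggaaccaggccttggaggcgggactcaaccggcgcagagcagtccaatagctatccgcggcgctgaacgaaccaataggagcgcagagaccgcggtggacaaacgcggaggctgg
Mcm6: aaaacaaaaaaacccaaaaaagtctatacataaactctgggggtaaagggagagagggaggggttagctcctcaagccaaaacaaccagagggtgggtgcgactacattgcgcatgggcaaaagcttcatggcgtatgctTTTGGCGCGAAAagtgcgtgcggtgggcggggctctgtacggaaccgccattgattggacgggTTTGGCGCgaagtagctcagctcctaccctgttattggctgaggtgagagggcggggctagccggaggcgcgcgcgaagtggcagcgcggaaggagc

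The 6 genes that chose the cells are described without a test. Mki67 was detected in 70 of the 72 cells, at a lowest value of 0, a median of 524 and a highest value of 1826 CPM (counts scaled to 1000000 per cell). Top2a was detected in 68 cells at a median of 622 CPM, and Birc5, a subunit of the chromosomal passenger complex, in 67 cells at a median of 403 CPM. Nusap1, which bundles spindle microtubules, was detected in 55 cells and Ube2c in 54. Cenpf, a kinetochore protein, was found in the fewest, 39 of 72 cells, but reached 1994 CPM. All 6 genes were present in 33 cells, 5 genes in 13, 4 in 12 and 3 in 14. In the 421 other sorted cells, 279 had none of the genes, 103 had 1 and 39 had 2. At the threshold, the 39 cells with 2 genes had a median of 3 counts over the 6 genes, and the 14 cells with 3 genes a median of 8.5 counts.

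The selected cells were deeper than the others. They had between 1843 and 62185 counts per cell, with a median of 22613, against 15227 in the other sorted cells. The median number of genes was 4614.5 against 3564, and the median mitochondrial share 0.530% against 0.636%. Scrublet called 4 of the 72 cells (5.56%) and 12 of the other 421 (2.85%) doublets. A rule that asks for detection finds more cells where cells are deep, so shares were compared after each cell was thinned to 2000 counts.

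After thinning, 35 of 470 sorted cells met the rule, which is 7.45% (5.24 to 10.2). The unsorted hyperoxia library at pnd7 had 122 of 1088 cells, 11.2% (9.40 to 13.2), and the air library at pnd7 had 128 of 1698, 7.54% (6.33 to 8.90). At pnd60 the share was 1.73% in air (42 of 2421) and 1.40% in hyperoxia (40 of 2852). The sorted library lay beside the air library at pnd7. Its difference from the unsorted hyperoxia library was -3.77 percentage points (Newcombe 95% interval -6.64 to -0.53), and both pnd60 libraries were lower. Without thinning the shares were 14.6% in the sorted library, 18.9% in hyperoxia and 10.4% in air at pnd7. Thinning left out 23 sorted cells, 158 and 610 cells of the hyperoxia and air libraries at pnd7, and 1904 and 1976 cells of those at pnd60.

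The mix of cell types differs between sorted and unsorted cells, so the share was also taken among macrophage-marker cells. These had at least 5 of 16 macrophage markers and a larger share of them than of the markers of any of 11 other classes. The call was made anew on the counts at each depth. The cells compared therefore differ between depths, with 444 sorted and 52 unsorted hyperoxia cells when counts were not thinned. In the sorted library 25 of 362 such cells met the rule after thinning, 6.91% (4.52 to 10.0), and in unsorted hyperoxia at pnd7 8 of 59, 13.6% (lower limit 6.04%). The difference, sorted minus unsorted, was -6.65 percentage points, with a Newcombe 95% interval from -17.8 to 0.57. The interval left out 0 without thinning (-15.0, -28.9 to -3.54) and at 1000 counts (-5.53, -17.0 to -0.43), and held it at 4000 counts (-1.39, -13.9 to 6.11). The unthinned difference was not seen when macrophage-marker cells were called without the erythroid markers, a call chosen after seeing the data, at 71 of 445 sorted cells (12.7 to 19.7%) against 19 of 121 unsorted cells (9.73 to 23.4%). At 2000 counts the same call gave a difference of -5.14 percentage points (-14.1 to 1.05), from 25 of 362 sorted and 10 of 83 unsorted cells. By the first call and at 2000 counts, air at pnd7 had 6 of 75 cells (2.99 to 16.6%), air at pnd60 14 of 266 (5.26%) and hyperoxia at pnd60 6 of 277 (2.17%). B cells of the pnd60 libraries, mostly at rest in the lung, gave a background for the rule: 0 of 237 cells in air and 0 of 338 in hyperoxia, for which the limit that a count of 0 allows, 3 cells of the total, is 1.27% and 0.888%. At pnd7, 3 of 103 B cells in air (2.91%) and 1 of 49 in hyperoxia (2.04%) met it. B cells were called by at least 3 of 6 markers. Called likewise by at least 3 macrophage markers, 32 of 430 sorted cells met the rule (7.44%, 5.15 to 10.3). By that call 8 of 75 cells met it in unsorted hyperoxia at pnd7 (10.7%, 4.72 to 19.9). In air at pnd7 it was 7 of 84 (8.33%, 3.42 to 16.4). Median depth before thinning was 16024 counts for the 430 sorted cells. It was 2372 and 2357 for the B cells of air and hyperoxia at pnd60.

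**Figure D1:**
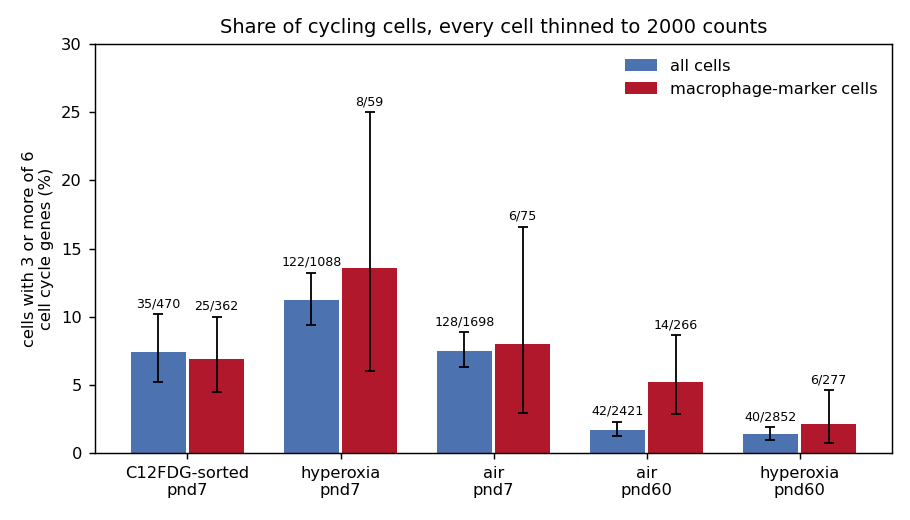
Share of cells with at least 3 of the 6 cell cycle genes (y axis, percent) in each library (x axis), after thinning every cell to 2000 counts, for all cells and for macrophage-marker cells; bars are shares, error bars 95% exact binomial intervals, and fractions give cells. All cells of the sorted library stood at 7.45%, between 1.40% at pnd60 and 11.2% in unsorted hyperoxia at pnd7.

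Nearly all cycling sorted cells carried macrophage markers. Of the 72 cells, 70 were macrophage-marker cells, as were 374 of the 421 other sorted cells, and the number of the 16 markers detected ran from 5 to 16 with a median of 10. Lyz2, a lysozyme gene, was detected in all 72, the mannose receptor Mrc1 in 71, the lysosomal protein Cd68 in 70 and the alveolar macrophage lectin Chil3 in 35. Of the 421 other cells, which were less deep, 397, 361, 368 and 170 had these genes, and the median number of markers was 9. By the complement genes C1qa, C1qb and C1qc, 61 cycling cells lay under 1000 CPM and 11 at or above it. Cycling cells were 14.2% of the 429 cells under that level and 17.2% (8.90 to 28.7) of the 64 cells above it, and 23 sorted cells lay between 500 and 2000 CPM. Thinned to 5000 counts, the shares were 11.5% and 12.2%. Cycling cells were found on both sides of the C1q level, with intervals that overlapped.

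The 2 remaining cells had all 6 selecting genes. One had 8 of the 16 macrophage markers and no marker of type I or type II cells, but 1 count each of 3 of the 6 erythroid markers. The other had 31523 counts and all 8 type II markers, with 3865 counts of Sftpc, the surfactant protein C gene, together with 10 of the 16 macrophage markers. That cell held 93.4% of the Sftpc counts of the 72 cells. Scrublet called neither a doublet. Xist, which is expressed in females, was detected without Y-linked genes in 38 cycling cells, Y-linked genes without Xist in 25, both in 4 and neither in 5. For the 421 other sorted cells these counts were 201, 158, 13 and 49.

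Across genes, cycling cells were compared with the other sorted cells by the CPM of summed counts. The rule chose the cells on this same contrast, so the values describe the cells and are not evidence that they cycle. Of 6793 genes with at least 100 counts over both groups, the selecting genes left out, 328 were at least 2-fold higher (4.83%) and 189 at least 2-fold lower (2.78%). Among macrophage-marker cells alone, 323 of 6414 genes were higher (5.04%) and 73 lower (1.14%). Of the 328 higher genes, 106 were in one of the gene lists below and 222 in none. The median log2 ratio of all genes was 0.02.

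Genes of S phase were higher almost throughout. Of 48 genes 36 had enough counts, and 35 of them were at least 2-fold higher, with a median log2 ratio of 2.45. The medians of the genes' lower and upper limits, given in brackets for each list, were 2.02 and 2.90. Pclaf, the PCNA-binding clamp factor, stood at 653 CPM (614 to 694) in cycling cells and at 14.3 CPM (11.5 to 17.6) in the others. It was detected in 67 of 72 and in 43 of 421 cells. Rrm2, the subunit of ribonucleotide reductase made for S phase, stood at 220 against 5.72 CPM, and Ccne2, the cyclin E2 gene, at 176 against 11.4 CPM. Pcna itself was broadly expressed, in 368 of the 421 other cells, and its log2 ratio was only 1.41 (1.29 to 1.54). The helicase genes Mcm5, Mcm6 and Mcm7 had log2 ratios of 2.73, 2.03 and 2.65. Nasp, a histone chaperone, was the 1 gene under 2-fold, at 0.92.

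G2/M genes had larger ratios. The rule chose the cells on genes of the G2/M kind, so this order against S phase genes is a description only. With the selecting genes left out, 39 of 43 measured genes were at least 2-fold higher, with a median log2 ratio of 3.57 (3.27 to 4.06). Ccna2, the cyclin A2 gene, had 209 counts in 49 cycling cells and 6 counts in 6 of the other cells, a log2 ratio of 7.11 (5.96 to 8.57). Racgap1, which organises the cytokinetic midzone, was detected in 53 cycling and 18 other cells, with a log2 ratio of 5.75. Knl1, a kinetochore scaffold, and Aurkb, the kinase of the chromosomal passenger complex, had ratios of 5.97 and 5.69. Cdk1 stood at 140 against 7.47 CPM and Ccnb1, its cyclin B1 partner, at 93.8 against 2.22 CPM. The 4 genes within 2-fold were Ctcf (0.95), Jpt1 (0.51), Pttg1 (0.32) and Gas2l3 (0.09).

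Among the 10 highest genes were also some outside the gene lists. Esco2, which acetylates cohesin, had 137 counts in 37 cycling cells against 5 in the others (log2 ratio 6.76). Fbxo5, an inhibitor of the anaphase-promoting complex, had a ratio of 6.68, Ncapg of condensin 6.12 and the spindle motor Kif15 5.84. These ratios were smaller when each cell's CPM was averaged in place of summing counts, at 4.07 for Esco2, 4.68 for Fbxo5, 4.03 for Ncapg and 3.76 for Kif15. Likewise H1f5 had 4.57 in place of 6.88, Knl1 3.95 and Aurkb 4.73, whereas Ccna2 stayed at 7.10 and Racgap1 at 5.82. Pclaf had 4.21 in place of 5.51. The linker histone H1f5 stood at 169 against 1.43 CPM. Replication-dependent histone genes summed to 1054 CPM (1004 to 1105) against 89.0 CPM (81.8 to 96.7), a log2 ratio of 3.57, although H2bc4, the most abundant of them in the other cells, was at 49.8 against 54.0 CPM. Most histone transcripts of this kind lack the poly(A) tail that the assay captures, so their level is a lower estimate. Among chromatin genes, 18 of 20 were at least 2-fold higher, with a median log2 ratio of 2.21. Stmn1, which destabilises microtubules, was detected in all 72 cells and stood at 1717 against 180 CPM.

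Upstream regulators were less uniform. In the list of G1 cyclins, CDKs and E2F factors, 6 of 14 measured genes were at least 2-fold higher, with a median log2 ratio of 0.74. Ccne1, the cyclin E1 gene, had a log2 ratio of 3.25, and Rbl1, E2f2, E2f3, E2f1 and Cdk2 had ratios between 1.65 and 2.79. Ccnd2, the most abundant cyclin D gene here, stood at 237 against 220 CPM, a ratio of 0.11 (-0.06 to 0.28), and Cdk6 had a ratio of -0.16 (-0.45 to 0.13). Genes of nucleotide synthesis were at least 2-fold higher for 8 of 15, led by Rrm2, Tk1, Tyms and Rrm1. The 7 others were within 2-fold, among them Paics at 0.67, Atic at 0.29 and Gart at -0.39, which act in purine synthesis.

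**Figure D2:**
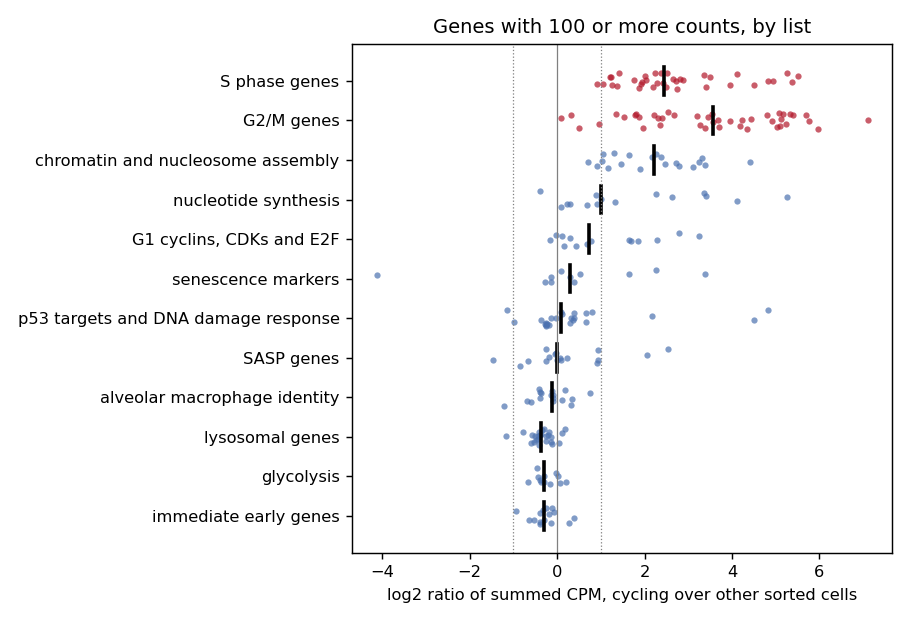
Log2 ratio of summed CPM, 72 cycling cells over 421 other sorted cells (x axis), for each gene with at least 100 counts in 12 gene lists (y axis); black bars are medians and dotted lines mark 2-fold. S phase and G2/M genes have medians of 2.45 and 3.57, while SASP and lysosomal genes have medians of -0.01 and -0.36.

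Within the 72 cells, summed S phase and G2/M genes covered a wide range. The summed S phase genes ran from 538 to 12157 CPM per cell with a median of 3674, against a median of 829 CPM in the other sorted cells. The summed G2/M genes ran from 1278 to 20937 CPM with a median of 7673, against 1428 CPM. Over the 72 cells Spearman's rho between the sums was 0.08, and 0.06 over 65 cells thinned to 5000 counts. In the 421 other cells it was 0.38. Both sums share a cell's total, and the rule selected on genes of the G2/M kind, which limits the range of that sum in either group. Split at the 2 medians, 20 cells were high for both sets, 16 for S phase only, 16 for G2/M only and 20 for neither. Of the 421 other cells, 14 reached the S phase median of the cycling cells and none the G2/M median. Those 14 had 0, 1 or 2 of the selecting genes in 1, 6 and 7 cells, and 13 of them were macrophage-marker cells.

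**Figure D3:**
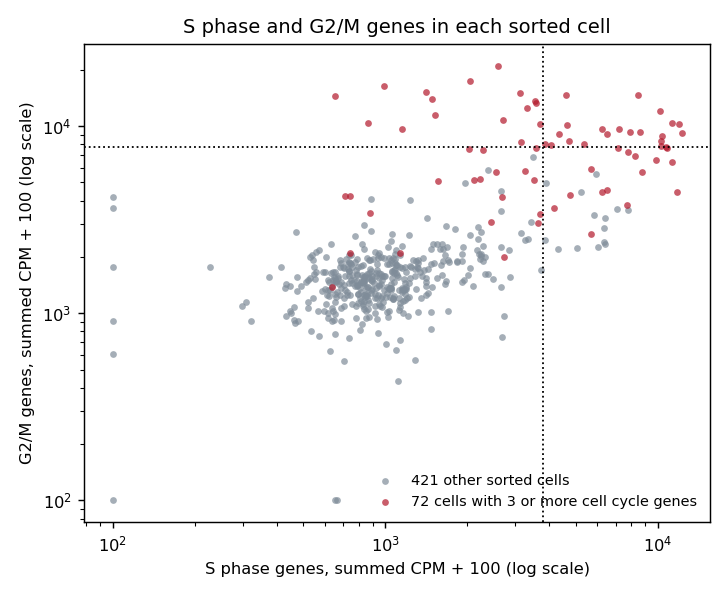
Summed CPM of 48 S phase genes (x axis) and of 61 G2/M genes (y axis) in each of 493 sorted cells, both plus 100 on log axes; red points are the 72 cycling cells, grey points the 421 others, and dotted lines the medians of the cycling cells, 3674 and 7673 CPM. All 4 quadrants hold cycling cells, and 14 grey points lie to the right of the vertical line.

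Genes outside both sums had the following levels in these groups of cells. Ccne1 had 40 counts in the 16 cells high for S phase only, 118 CPM (84.6 to 161), and 3 counts in the 16 cells high for G2/M only. The selecting genes, which the rule used, are given as a description only. Ube2c had 38.5 CPM (20.5 to 65.8) in the former and 939 CPM (842 to 1045) in the latter, and Cenpf 44.4 and 455 CPM. Histone genes were highest in the 20 cells high for both sets, at 1674 CPM, and lay between 604 and 788 CPM in the other 3 groups. Cdkn1a was found in 11 of 16 cells high for S phase only, 13 of 16 high for G2/M only, 19 of 20 high for both and 15 of 20 high for neither. Its level was 133 CPM (97.2 to 178), 102 CPM (71.8 to 141), 123 CPM (95.9 to 156) and 195 CPM (150 to 250) in that order, and only the second and the last did not overlap.

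Cdkn1a, the p21 gene, was detected in 58 of the 72 cycling cells (80.6%, 69.5 to 88.9) and in 197 of the 421 other cells (46.8%, 41.9 to 51.7). All 58 also had a count of Mki67, as did 39 of the 421 other cells together with Cdkn1a, but Mki67 is a selecting gene and was present in 70 of the 72 cells. At equal depth of 5000 counts the shares were 44.6% of 65 cells (32.3 to 57.5) and 30.3% of 376 cells (25.7 to 35.2). In CPM it stood at 135 (118 to 155) against 104 (95.8 to 112), a log2 ratio of 0.39 (0.16 to 0.61). The size of the ratio depended on the cells compared, at 0.00 against the 72 other cells nearest in depth and 0.77 among macrophage-marker cells.

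Other CDK inhibitors had fewer counts. Cdkn2c, the p18 gene, stood at 44.1 CPM (34.4 to 55.7) in cycling cells and 3.50 CPM (2.19 to 5.29) in the others, and was detected at 5000 counts in 23.1% and 2.39% of cells. Cdkn2d, the p19 gene, stood at 29.0 against 6.52 CPM. Both fell short of the 100 counts set for gene counts. Cdkn1b, the p27 gene, had a log2 ratio of 0.36 (0.02 to 0.70). Cdkn2a, which encodes the senescence protein p16, had 2 counts in 2 of the 72 cells and 1 count in the others, under the floor of 3 counts at which a level can be told from 0.

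The senescence markers did not move as one group. Of 11 measured, 3 were at least 2-fold higher, 1 was lower and 7 were within 2-fold, with a median log2 ratio of 0.29 (0.16 to 0.59). The 3 higher genes, Hmgb2 (3.38), Lmnb1 (2.26) and Hmgb1 (1.65), are markers that are lost in senescence. Lmnb1, the lamin B1 gene, was detected at 5000 counts in 44.6% of cycling cells (32.3 to 57.5) and in 49 of 376 others (9.80 to 16.9%). The lower gene was Igfbp7 (-4.12), and among macrophage-marker cells its ratio was -0.52. Plaur, which encodes the urokinase receptor, was found in 64 of 72 cells and stood at 375 CPM (346 to 407) against 458 (441 to 475). B2m stood at 929 against 1030 CPM and Gdf15, a secreted stress factor, at 897 against 733 CPM. Glb1, the gene of lysosomal β-galactosidase, was sparse, with 23 counts in 21 cycling cells and a ratio of -0.15 (-0.87 to 0.52).

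**Figure D4:**
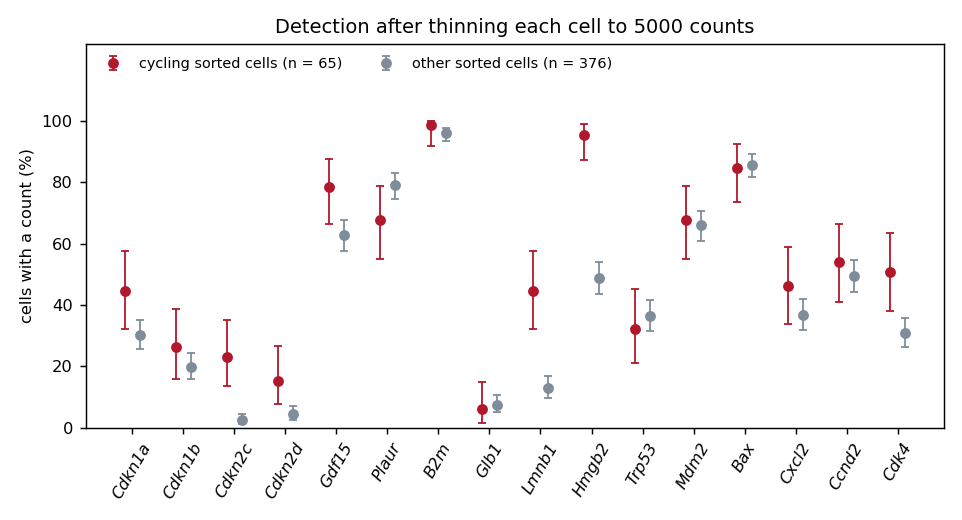
Share of cells with a count (y axis, percent) for genes of senescence and cell cycle control (x axis), in 65 cycling and 376 other sorted cells thinned to 5000 counts; points are shares and bars 95% exact binomial intervals. Hmgb2, Lmnb1, Cdkn2c and Cdk4 were found in more of the cycling cells, while Glb1, Mdm2 and Bax had overlapping intervals.

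Targets of p53 showed no shared direction. In the list of p53 targets and DNA damage genes, 3 of 24 were at least 2-fold higher, 1 was lower, and the median log2 ratio was 0.10 (-0.34 to 0.42). H2afx, the histone that is phosphorylated at DNA breaks, had a ratio of 2.16. The classical targets Mdm2, Bax and Ccng1 had ratios of -0.25, -0.26 and -0.01. Trp53inp1 was lower, at -1.15 (-2.20 to -0.25), with 11 counts in cycling cells. Among macrophage-marker cells it was -1.04 but had too few counts to be measured, and no gene of the list was 2-fold lower there.

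Secreted factors of the senescence-associated secretory phenotype (SASP) were expressed by cycling cells too. Of 17 measured genes 2 were at least 2-fold higher and 1 was lower, and the median log2 ratio was -0.01 (-0.24 to 0.30). All 26 genes summed to 6572 CPM against 4689 CPM, a log2 ratio of 0.49 (0.45 to 0.52). Without the cycling cell richest in Cxcl2 the ratio of the sums was 0.26 (0.22 to 0.29). Cxcl2, a neutrophil-attracting chemokine, stood at 3375 CPM against 1778 CPM and was detected in 41 of 72 and 195 of 421 cells. Its counts were uneven, since 1 cell held 28.3% of them. Without that cell the ratio was 0.49 in place of 0.92, and against the other cells nearest in depth it was 1.83. That cell had all 6 selecting genes and 51440 counts, was called a doublet, and also held 49.1% of the Cxcl1 counts. The counts of the 2 higher genes were uneven as well. One cell held 89.6% of the Il1b counts, and without it the log2 ratio turned from 2.05 to -1.19. Another held 62.7% of the Cxcl10 counts, and without it the ratio was 1.14 (0.75 to 1.52) in place of 2.55. Il1a turned from 0.94 to -0.61 without the Il1b-rich cell. The gene with the highest ratio of all, the interferon-induced chemokine Cxcl9, had 183 counts in 2 cells, 60.1% of them in 1, and 1 count in the other cells, so its log2 ratio of 9.50 is loose (7.01 to 14.8). Mmp19, a matrix metalloproteinase, was the lower gene at 95.1 against 262 CPM (log2 ratio -1.46).

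Lysosomal genes were nearly all within 2-fold. Of 25 measured, 24 were within it, none was higher and 1, Cd63 (-1.17), was lower, with a median log2 ratio of -0.36 (-0.50 to -0.20). Their sum was 12340 CPM against 16493 CPM. Ctsd, the cathepsin D gene and the most abundant of them, was found in all 72 cells and stood at 2614 against 3690 CPM. Alveolar macrophage genes had a median ratio of -0.11 (-0.44 to 0.00), with Car4 at 0.12, Itgax at -0.09, Pparg at -0.10 and Fabp4 at -1.21. Of 17 macrophage growth signal genes, 1 was at least 2-fold lower and 16 were within 2-fold, with a median of -0.19. In that list Csf2rb, the common β chain of the GM-CSF receptor, and its paralog Csf2rb2 stood at 256 against 442 CPM and at 56.0 against 123 CPM, and Csf1r had a ratio of -0.34. Glycolysis genes had a median ratio of -0.30 and immediate early genes of -0.29. M1 markers had 1 of 5 genes 2-fold higher, Il1b, and none of 3 measured M2 markers passed 2-fold.

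Several of the lowest genes were markers of mesenchymal or epithelial cells. Fewer cells of a type and less RNA per cell cannot be told apart in such sums. Col1a1 and Col3a1, collagens of mesenchymal cells, had 0 counts in cycling cells and 560 and 394 counts in 6 other cells each, so their log2 ratios were -5.56 or lower and -5.05 or lower when the cycling cells were set to a floor of 3 counts. One other cell held 82.0% of the Col1a1 and 82.2% of the Col3a1 counts. Cells outside the macrophage-marker call were 2 of the 72 cycling cells and 47 of the 421 others. Among macrophage-marker cells, Col1a1 had 0 counts on both sides and Col3a1 0 against 2. The type II, type I and endothelial markers with enough counts there, 2, 1 and 1 genes, were all within 2-fold. Mesenchymal markers summed to 1.89 against 236 CPM, with 6 of 8 at 0 in cycling cells. Type I markers summed to 76.2 against 282 CPM, led by Hopx, with 4 of 7 at 0. Endothelial markers summed to 15.7 against 64.7 CPM with 5 of 8 at 0, and type II markers to 2727 against 10028 CPM, led by Sftpc. The cycling cell with all 8 type II markers held 4015 of the 4330 type II counts, and without it Sftpc stood at 174 CPM in place of 2605 CPM. Other classes were not lower beyond their intervals, with airway epithelial markers at 46.0 against 42.4 CPM, neutrophil markers at 84.4 against 86.5, erythroid markers at 11.3 against 13.5 and B cell markers at 1.26 against 4.13. Markers of T and NK cells summed to 6.30 against 2.38 CPM (all from Ccl5 in cycling cells, 7 of 8 at 0), those of dendritic cells to 5.04 against 3.81 and those of mast cells and basophils to 4.41 against 1.59. Among macrophage-marker cells the lowest genes were Retnla (-7.92, -13.2 to -5.44), Cd5l (-5.12, -10.4 to -2.62), Adamdec1 (-3.08) and Inhba (-2.73). Retnla and Cd5l had 1 count each in the cycling cells of this contrast. Retnla was found in 12, Cd5l in 4, Adamdec1 in 25 and Inhba in 45 of all 421 other cells. A single other cell held 91.9% of the Retnla and 87.6% of the Cd5l counts there.

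The same rule picked 16 macrophage-marker cells from the unsorted hyperoxia library at pnd7, and the 70 sorted ones were set against them. Both sides met the rule, so this contrast was not used to choose the cells, but each side was 1 library, and the sort, the library and its sequencing cannot be told apart. The call left few unsorted cells, since 52 cells of that library were macrophage-marker cells and 121 when the erythroid markers were not used, a choice made after seeing the data. The unthinned share meeting the rule was 30.8% of the 52 and 15.7% of the 121. Median depth was 22208.5 counts in the sorted and 21250 in the unsorted cells. Of 3036 genes with enough counts, 174 were at least 2-fold higher in the sorted cells (5.73%) and 217 lower (7.15%). Both sides had to meet the rule, which bears on the levels of cell cycle genes. Of 28 S phase genes none passed 2-fold, with a median log2 ratio of -0.11 (-0.71 to 0.53), and of 42 G2/M genes 4 were lower and none higher, with a median of -0.33 (-0.82 to 0.10).

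Among the 10 highest genes were Hmox1, Slc7a11 and Mt2. Hmox1, which encodes heme oxygenase 1, was found in all 70 sorted cells at 7765 CPM and in 10 of 16 unsorted cells at 85.9 CPM, a log2 ratio of 6.50 (5.95 to 7.11). One unsorted cell held 46.2% of the unsorted counts. Slc7a11, the cystine transporter gene, was found in 62 of 70 and 2 of 16 cells, and the metallothionein Mt2 in 65 of 70 and 5 of 16 cells, with 4586 and 6 counts. The same ratio in macrophage-marker cells outside the rule, 374 sorted and 36 unsorted, was 6.18 for Hmox1, 8.11 for Slc7a11 and 3.96 for Mt2. For Slc7a11 both ratios rest on very few unsorted counts, 2 in the cycling cells (6.78, 4.92 to 9.82), and the interval outside the rule ran from 5.63 to 13.4. Clec4e, a lectin receptor, had 269 counts in 38 sorted cells and none in the unsorted, a log2 ratio of at least 4.15 at the floor of 3 counts.

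Of 26 SASP genes 13 had enough counts. Of these, 9 were at least 2-fold higher in the sorted cells and none lower, against 5.73% and 7.15% of all genes. Their median log2 ratio was 1.66 (0.91 to 2.82). The sorted side held 1531768 counts and the unsorted side 302760, so a gene high in sorted cells could reach 100 counts through them alone. Cxcl10 did so, with 233 counts against 1. The count and the median therefore describe the genes that passed and are no evidence of a change in the list. In macrophage-marker cells outside the rule, 5 of 17 were higher, 1 was lower and the median was 0.12 (-0.46 to 0.98). Of all 5926 genes measured there, 6.18% were higher and 13.8% lower. The 2 medians cover 13 and 17 genes, and the difference between them was not tested. Cxcl2 stood at 3478 against 195 CPM, in 39 of 70 and 5 of 16 cells. Mmp12, macrophage elastase, was found in 36 and 4 cells with a ratio of 5.09, and 28.7% of its sorted counts came from 1 cell. Its ratio was 2.64 when macrophage-marker cells were called without the erythroid markers, and 2.67 in cells outside the rule. Gdf15 was found in 60 and 4 cells with a ratio of 3.71 (3.09 to 4.41). Cxcl1, Cxcl10, Ccl4 and Wfdc17 were also among the 10 highest, but 49.4%, 63.5%, 48.7% and 65.1% of their sorted counts came from 1 cell each, and the unsorted cells had 1, 1, 3 and 3 counts. Cdkn1a stood at 138 against 79.3 CPM, a ratio of 0.80 (0.18 to 1.47), and was detected in 56 of 70 and 10 of 16 cells.

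Genes of C1q-rich macrophages were lower in the sorted cells, with 7 of 10 at least 2-fold lower, 2 higher and a median of -1.35 (-1.79 to -1.05). In macrophage-marker cells outside the rule, 8 of 11 were lower and none higher, with a median of -1.97 (-2.19 to -1.74). C1qa stood at 302 against 1057 CPM, found in 15 of 70 and 4 of 16 cells. The transcription factor genes Maf and Klf2 had ratios of -4.73 and -4.39, and -4.95 and -4.17 in cells outside the rule. Of their unsorted counts, 1 cell held 53.6% for Maf, found in 5 cells, and 39.6% for Klf2, found in 12. Hbb-bs, the β-globin gene of red cells, was found in all 16 unsorted cells at 855 CPM and in 10 of 70 sorted cells at 6.53 CPM. Of 14 macrophage markers measured in this contrast, 7 were at least 2-fold lower in the sorted cells and none higher, among them Mrc1 (527 against 1199 CPM) and Csf1r (112 against 327 CPM), whereas Lyz2 stood at 866 against 657 CPM. What part these markers and globin have in the other differences was not tested. Retnla had the lowest ratio (-9.46, -14.8 to -6.96), from 1 sorted count against 139 unsorted counts that were all in 1 cell. Outside the rule its ratio was 5.97 (3.48 to 11.3).

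**Figure D5:**
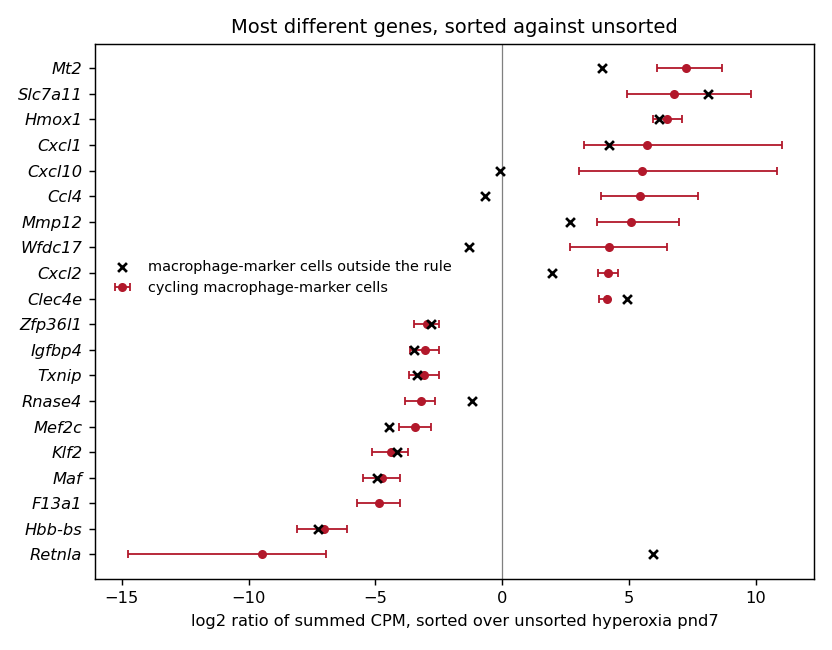
Log2 ratio of summed CPM, sorted over unsorted hyperoxia at pnd7 (x axis), for the 10 highest and 10 lowest genes (y axis); red points are 70 sorted against 16 unsorted cycling macrophage-marker cells with 95% binomial intervals, and crosses the same ratio in 374 and 36 cells outside the rule. Hmox1, Maf and Klf2 have crosses within the red intervals, while Cxcl10, Ccl4, Wfdc17 and Retnla have crosses on the other side of 0.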

How the data were processed

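Cells were profiled with the 10x Genomics 3′ v3.1 kit. For each of 5 libraries the authors deposited unnormalized UMI counts (unique molecular identifiers) by gene and cell barcode. The submitters' processing notes name Cell Ranger, Seurat 3.2.1 and mm10. Mitochondrial share rests on the 2 features mt-Rnr1 and mt-Rnr2. The members and gene lists were chosen with earlier results of these data known.

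Counts were summed over cells and divided by their total (CPM). Intervals at 95% are exact Poisson for CPM, Clopper-Pearson for shares (a share of 0 has the limit of 3 counts instead), binomial for log2 ratios and Newcombe for a difference of shares, and cover counting error only. The median limits of a list are medians of its genes' limits. A group at 0 was set to a floor of 3 counts. Genes needed 100 counts over both groups. Thinning drew counts without replacement to 2000 between libraries and 5000 within the sorted library, with 1 random draw. With 1 library per condition no p-value was computed. Gene counts use a 2-fold threshold. Named genes are the selecting genes, listed genes and the 10 highest and 10 lowest per comparison. Near-identical genes, such as histones, globins and the Csf2rb pair, can share counts. Doublets were called by Scrublet in scanpy 1.11.5 and kept. It marked only 0.0867% of air and 0.321% of hyperoxia cells at pnd7, and whether it missed doublets there was not tested. The ratio and its interval were tested on data simulated with Poisson counting error alone. That simulation does not cover counts that are uneven between cells. Alternatives numbered 94 planned and 14 chosen after seeing the data. Python 3.11.15, numpy 2.4.6, scipy 1.17.1 and pandas 2.3.3 were used.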

Additional observations from a re-analysis of the deposited data

How the results depend on the processing

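Of 108 alternative values, 88 were classed as unchanged and 20 as moved. The first class was wide. The macrophage-marker share difference of -6.65 percentage points was classed as unchanged at -15.0 without thinning, where its interval left out 0, and at -1.39 with 4000 counts. The share of sorted cells meeting the rule was 22.5% with 2 or more genes and 11.6% when cells were thinned to 5000 counts. Against the other sorted cells, thinning gave 83 genes higher and 97 lower, a minimum of 50 counts gave 511 and 366, and 99 genes were lower against cells matched in depth and 73 among macrophage-marker cells. The median log2 ratio of S phase genes was 1.58 after thinning, that of G2/M genes was 1.94 after thinning and 3.16 with mean CPM per cell, and that of SASP genes, -0.01 as given, was 0.34 against cells matched in depth, 0.19 after thinning and -0.10 without doublets, so its sign was not settled. Sorted against unsorted, thinning gave 25 genes higher and 2 lower, a minimum of 50 counts gave 294 and 535, and all rule cells gave 692 and 1795. The SASP median was then 3.20 after thinning and 3.45 with all rule cells. Thinning leaves fewer genes with 100 counts, and all rule cells include cell types other than macrophages in the unsorted library. No paired analysis was possible because only 1 library represented a condition.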
